A study of Mus musculus with 15 samples.

Results

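A set of 5 genes of antigen presentation and T cell costimulation, out of 754 genes counted, is described here in mouse bone marrow-derived macrophages (BMDMs): H2-Eb1, Cd74, Cd83, Cd86 and Icosl. They were picked by name from the count table, with their levels in these same 4 groups already known, so their levels and differences are a description and carry no test. The assay was the Myeloid Innate Immunity panel of NanoString nCounter, which counts colour-coded probes bound to RNA with no amplification step. MPLA samples (n = 4) were BMDMs kept for 4 days with 20 ng/mL of monophosphoryl lipid A, a Toll-like receptor 4 agonist, as the M1-like standard, and IL4 samples (n = 4) received 20 ng/mL of interleukin-4 for 4 days as the M2-like standard. For IRF5-NP (3 samples, numbered 1, 2 and 4) and eGFP-NP (4 samples), M2-like cells were given 1 µg of nanoparticles for 1 h by the labels, so every group but MPLA had been exposed to IL-4. The IRF5 nanoparticles also carried mRNA for the kinase IKKβ and an eGFP reporter by the methods, which give another nanoparticle amount, and the control nanoparticles carried eGFP mRNA alone. Both nanoparticle groups were also sorted for strong eGFP signal and put back in medium with less IL-4, steps the methods do not give for the standards, so nanoparticle uptake, sorting and the second IL-4 exposure cannot be told apart in a comparison with either standard. Mouse strain was not given in the sources used here, and the labels do not say whether replicates were separate cultures. The study describes its samples in this experiment as biologically independent, but several pairs of libraries were nearly identical, so p-values measure the spread between these samples, which may be technical.

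MHC class II molecules are pairs of α and β chains that show peptides from engulfed proteins to CD4 T cells. Newly made chains are held by the invariant chain CD74 until the class II-like molecule H2-DM loads the peptide, and the coactivator CIITA drives these genes together through shared X and Y box promoter elements. A T cell also needs costimulation, given by ligands such as CD86 (to CD28) and ICOSL (to ICOS), while CD83 keeps class II and CD86 molecules on the cell surface by opposing their ubiquitination.

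Total gene counts ran from 266169 in IRF5-NP 4 to 1784830 in MPLA 1. The difference between eGFP-NP 1 and 2 could not be told from sampling noise, and these libraries were counted as 1 sample, eGFP-NP 1-2, which left 14 libraries. Another 4 pairs were nearly identical though above that noise (eGFP-NP 3 with 4, IRF5-NP 1 with 2, MPLA 2 with 3 and MPLA 1 with 4), so the spread within MPLA may be that of repeat assays. The background limit of a library was set 2 SD over the mean of its negative control probes, at 19.7 to 34.9 counts. The 9 measured macrophage markers were above background in every library, except Mertk in IRF5-NP 4 (14 counts). Fibroblast markers (7 measured of 14 listed) were also present and split the libraries. Their mean level was 12.5 to 12.7 log2 CPM (CPM being counts scaled to a common library size, here by TMM) in MPLA, while IL4 libraries spanned 4.67 to 11.9, IRF5-NP 4.00 to 11.0 and eGFP-NP 4.02 to 11.6. The part of these cells in the results was not tested, apart from fits with their mean as a covariate. The MPLA means lay above those of all other libraries, so such fits extrapolate in any comparison with MPLA. In bulk RNA, fewer cells of a type and less RNA per cell cannot be told apart.

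Promoter sequence is shown for the class II β chain H2-Eb1, for its close partner in these data H2-Aa, the α chain of the other class II molecule, and for Icosl, because the class II genes moved together across libraries and Icosl did not move with them. The stretches run from 100 bases before to 50 after the start in RefSeq (GRCm38.p6), 5′ to 3′ on the gene's strand. Capitals mark GCAACT, part of the X box, and CCAAT or its reverse complement ATTGG, the core of the Y box; these letters were chosen after the promoters had been read.
H2-Eb1, chr17:34305767-34305916, plus strand: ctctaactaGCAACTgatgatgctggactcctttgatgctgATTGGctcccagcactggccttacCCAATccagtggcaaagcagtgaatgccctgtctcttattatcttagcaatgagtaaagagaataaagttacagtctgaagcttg
H2-Aa, chr17:34287774-34287923, minus strand: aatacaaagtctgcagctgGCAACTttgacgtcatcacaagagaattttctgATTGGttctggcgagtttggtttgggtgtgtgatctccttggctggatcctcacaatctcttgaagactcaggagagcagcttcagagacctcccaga
Icosl, chr10:78069268-78069417, plus strand: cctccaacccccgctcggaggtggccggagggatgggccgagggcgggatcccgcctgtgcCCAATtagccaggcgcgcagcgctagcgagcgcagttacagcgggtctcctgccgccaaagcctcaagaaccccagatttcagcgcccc
GCAACT lay at -91 to -86 in H2-Eb1 and -81 to -76 in H2-Aa, counted from the start site, and ATTGG followed at -59 to -55 and -48 to -44. H2-Eb1 also held CCAAT at -35 to -31, and Icosl held it at -39 to -35. Of 32851 promoter windows of 150 bases, 23.4% held CCAAT on either strand, while 0.204% (67) held GCAACT followed within 40 bases by ATTGG, on either strand.

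H2-Eb1, the β chain of the class II molecule I-E, was high in some IL4 libraries and low elsewhere. Counts in IL4 1 to 4 were 721, 15029, 19858 and 2946. MPLA 1 to 4 held 513, 630, 660 and 576 counts. IRF5-NP 1, 2 and 4 held 384, 411 and 49, and eGFP-NP 1 to 4 held 857, 958, 445 and 394. IL4 2 and IL4 3 thus stood far above the rest, while IL4 1 lay within reach of the nanoparticle libraries. On the log2 CPM scale the level was 11.93 ± 2.27 (SD, n = 4) in IL4, 9.09 ± 0.50 (n = 3) in eGFP-NP, 8.32 ± 0.20 (n = 4) in MPLA and 7.91 ± 1.01 (n = 3) in IRF5-NP. IL4 and eGFP-NP overlapped, MPLA and IRF5-NP overlapped, and eGFP-NP lay above MPLA with no overlap.

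Cd74, the invariant chain, had the same high libraries. Its counts were 21003, 155430, 194985 and 62067 in IL4 1 to 4. In MPLA they were 14844, 13653, 14001 and 14515. IRF5-NP libraries held 19179, 17441 and 819 counts, and eGFP-NP libraries held 18091, 18588, 7516 and 6726. Every IL4 library was above every other library on the CPM scale, with 15.92 ± 1.50 log2 CPM (SD, n = 4) in IL4. The other groups overlapped in part, at 13.25 ± 0.64 (n = 3) in eGFP-NP, 12.94 ± 1.85 (n = 3) in IRF5-NP and 12.90 ± 0.05 (n = 4) in MPLA. IRF5-NP 4 alone set the wide spread of its group, at 10.80 against 14.05 and 13.97.

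Cd83 was the steadiest of the 5 genes within IL4, with counts of 835, 1296, 1085 and 1131. MPLA held 449, 498, 482 and 495 counts. IRF5-NP held 565, 528 and 27, the last not above background, and eGFP-NP held 355, 441, 99 and 90. The IL4 libraries lay above all others at 9.71 ± 0.27 log2 CPM (SD, n = 4), MPLA lay at 8.02 ± 0.12 (n = 4), and IRF5-NP (7.94 ± 1.75, n = 3) and eGFP-NP (7.27 ± 1.04, n = 3) overlapped each other. Both nanoparticle groups were split, each with its fibroblast-poor libraries higher.

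Cd86, the ligand of CD28, was even in MPLA and uneven in IL4. MPLA 1 to 4 held 271, 283, 298 and 249 counts. IL4 1 to 4 held 38, 1147, 103 and 107. IRF5-NP held 46, 47 and 44, and eGFP-NP held 45, 51, 30 and 29, all above but close to background. IL4 2 stood alone at 9.69 log2 CPM against 5.13 to 6.64 in the other IL4 libraries. Group levels were 7.22 ± 0.14 (SD, n = 4) in MPLA, 6.88 ± 1.98 (n = 4) in IL4, 5.83 ± 0.67 (n = 3) in IRF5-NP and 5.18 ± 0.26 (n = 3) in eGFP-NP, and each neighbour in that order overlapped the next.

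Icosl, the ligand of ICOS, was the scarcest of the 5 and was above background in 10 of 15 samples. MPLA held 188, 158, 168 and 203 counts. IL4 held 22, 192, 14 and 62, with IL4 1 and IL4 3 not above background. IRF5-NP held 41, 39 and 16, and eGFP-NP held 31, 39, 15 and 10, with IRF5-NP 4, eGFP-NP 3 and eGFP-NP 4 not above background. IL4 2 again stood alone, at 7.13 log2 CPM, above the 6.48 to 6.76 of the MPLA libraries. Levels were 6.61 ± 0.12 log2 CPM (SD, n = 4) in MPLA, 5.21 ± 0.03 (n = 3) in IRF5-NP, 5.17 ± 1.43 (n = 4) in IL4 and 4.24 ± 0.69 (n = 3) in eGFP-NP, and MPLA did not overlap IRF5-NP.

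**Figure D1:**
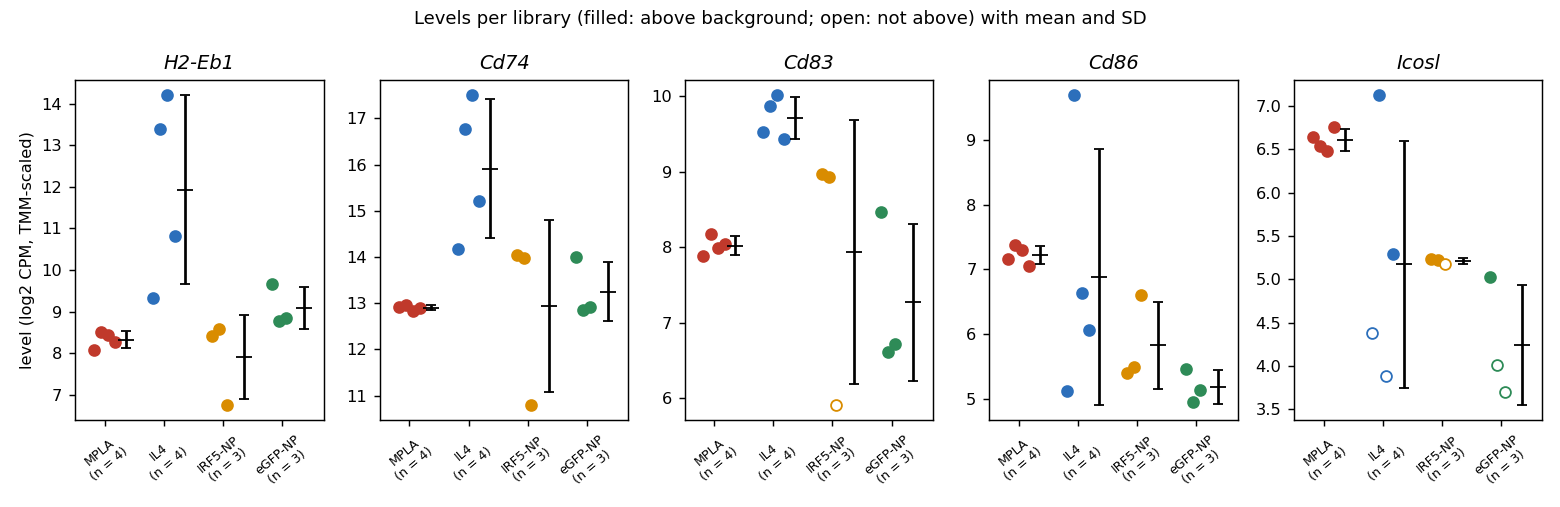
Level of each gene in log2 CPM (y axis) in every library of the 4 groups (x axis); filled points are above background, open points are not, and the bar to the right of each group is its mean and SD. IL4 2 and IL4 3 are high for H2-Eb1 and Cd74, and IL4 2 is the highest library for Cd86 and Icosl, with the MPLA libraries next.

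The spread within IL4 was wide beside that of the panel: the median SD over all 754 genes was 0.62 log2 CPM in IL4 and 0.14 in MPLA, and 4 of the 5 genes exceeded the median in IL4. IL4 2, where Cd86 and Icosl peaked, was also the sole library with the dendritic cell markers Clec9a (252 counts), Xcr1 (56) and Flt3 (39) above background, and held 483 counts of H2-Ob against 51 or fewer elsewhere. The other dendritic markers were mixed. Fscn1 was highest among IL4 libraries in IL4 2 (10.96 log2 CPM, against 10.74, 4.86 and 10.30 in IL4 1, 3 and 4), but was higher still in all MPLA libraries (11.81 to 12.02) and in IRF5-NP 4 (12.12), eGFP-NP 3 (12.91) and eGFP-NP 4 (13.03). In the fibroblast-poor libraries it lay at 4.42 to 5.03, so Fscn1, which enters the dendritic marker mean, was high where fibroblast markers were high. Itgax, the gene of CD11c, was lowest among IL4 libraries in IL4 2, at 26 counts against 795 to 2293, as was Batf3, at 69 against 194 to 212. Ccr7 was above background in IL4 4 alone (52 counts, against 11 in IL4 2). The mean of the 7 dendritic markers measured, of 11 listed, was lower in IL4 2 than in IL4 4, and its range was 5.69 to 6.04 log2 CPM in IL4, 5.26 to 5.78 in IRF5-NP, 5.35 to 5.98 in eGFP-NP and 4.67 to 4.95 in MPLA. The part of dendritic cells in these levels was not tested. High class II levels occurred in fibroblast-rich IL4 2 (marker mean 11.9) and in fibroblast-poor IL4 3 (4.67).

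Levels of the 5 genes were correlated across the 14 libraries, which share their group, culture and depth differences. H2-Eb1 and Cd74 had a Pearson r of 0.955 (Spearman 0.789), Cd74 and Cd83 0.872 (0.938), and H2-Eb1 and Cd83 0.726 (0.692). Cd86 and Icosl had 0.792 (0.771), and either of these with H2-Eb1, Cd74 or Cd83 had -0.10 to 0.38. Among 548 genes above background in at least 7 libraries, the closest to H2-Eb1 were H2-Aa (r = 0.995), H2-Ab1 (0.988) and Cd74 (0.955). For Cd74 these were the peptide loading genes H2-DMa (0.976) and H2-DMb1 (0.974) and then H2-Ab1 (0.972). Cd83 was closest to Tlr1 (0.919), Selplg (0.916) and H2-T23 (0.911), with no class II gene among them, and from IL4 1 to IL4 2 and IL4 3 it differed by 0.34 and 0.49 log2 CPM where H2-Eb1 differed by 4.09 and 4.89. Cd86 lay nearest to Fcgr1 (0.964), Siglec1 (0.906) and Aoah (0.902), and Icosl to Nlrp3 (0.931), Siglec1 (0.889) and Aoah (0.883). Against the fibroblast marker mean, r was -0.25 for H2-Eb1, -0.40 for Cd74 and -0.40 for Cd83, but 0.41 for Cd86 and 0.41 for Icosl. Against the macrophage marker mean it was above 0 for all 5 genes: 0.40 for H2-Eb1, 0.55 for Cd74, 0.73 for Cd83, 0.43 for Cd86 and 0.51 for Icosl.

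**Figure D2:**
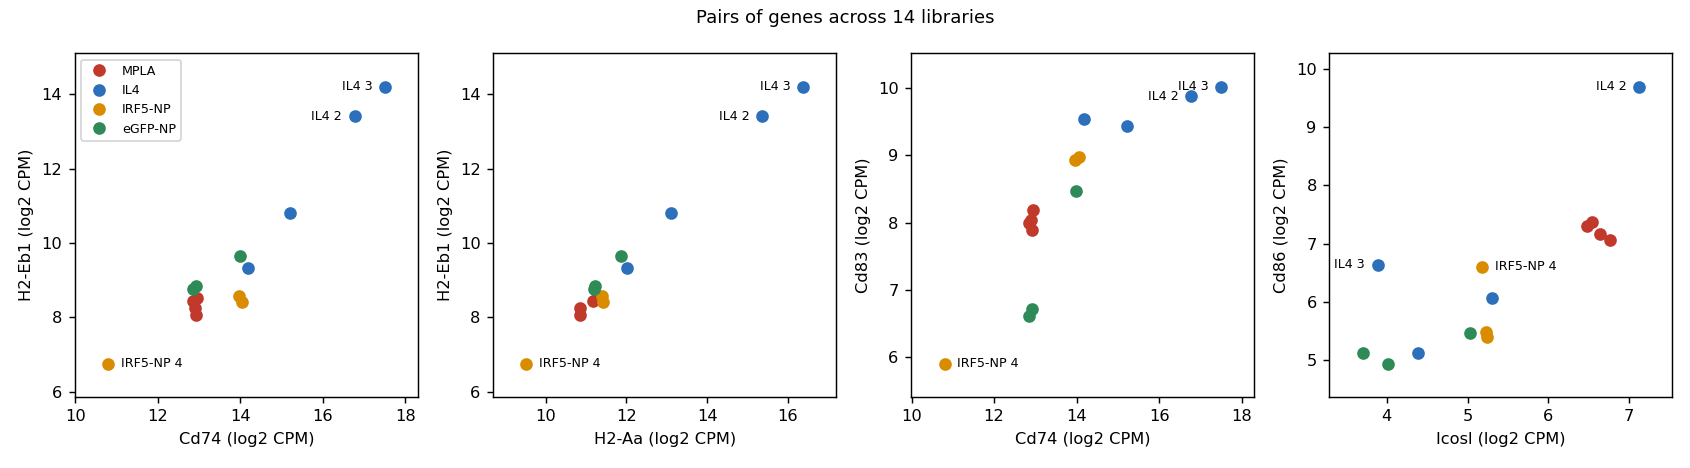
Pairs of genes in log2 CPM, each point being 1 of 14 libraries coloured by group, with 3 libraries named. H2-Eb1 follows H2-Aa closely (r = 0.995) and Cd74 (0.955), whereas IL4 3, high for class II, is low for Icosl.

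Comparing the standards asks how the M1-like and M2-like states differ. In MPLA the fitted log2 difference from IL4 was -4.59 ± 0.99 (SE) for H2-Eb1, -3.48 ± 0.69 for Cd74 and -1.68 ± 0.20 for Cd83, all with groups that did not overlap, as held for 37.3% of all genes. These 3 passed the threshold of edgeR's quasi-likelihood test (adjusted p under 0.05 over all genes), as did 26.4% of the 754 genes. Nothing is read from that count, since the genes were chosen on these groups. Cd86 (-0.74 ± 0.90) and Icosl (0.90 ± 0.66) did not pass. The fitted Cd86 difference is below 0, although the mean of log2 levels was higher in MPLA (7.22 against 6.88), so Cd86 has no settled direction. Both ligands depended on IL4 2: without it Cd86 was 1.20, Icosl was 2.00 and all 5 genes passed, as did 39.1% of all genes. They moved the other way with the fibroblast marker mean as a covariate, to -1.46 for Cd86 and 0.01 for Icosl. H2-Eb1, Cd74 and Cd83 still passed in that fit, with 14.5% of all genes. H2-Eb1 no longer passed without MPLA 1 (9.81% of all genes passed) or without MPLA 4 (10.7%), Cd83 no longer passed with all groups in one fit (16.3%), and Cd83 alone passed with the replicate block (12.6%). None of the 5 passed when the nearly identical pairs were summed (2.65% of all genes did).

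The 33 other measured genes of class II, class I, costimulation and coinhibition (of 63 listed, with the 5 genes left out) had a median log2 difference of -0.76 against -0.05 over all genes, and 9 of them fell and 1 rose in MPLA by edgeR's test. The 10 called are 30.3% of the 33, near the 26.4% of all genes, and 14.2% of all genes were called lower. They became 0 with nearly identical pairs summed and under the methods' t-test, and 3 without MPLA 1 or MPLA 4. Of the 9 class II genes, 5 fell: the I-A chains H2-Ab1 (-4.11 ± 0.91, adjusted p = 0.0146) and H2-Aa (-3.99 ± 0.90, adjusted p = 0.0154), the peptide loading chains H2-DMa (-3.20 ± 0.59, adjusted p = 0.00746) and H2-DMb1, and Ctss, a protease that trims the invariant chain. H2-Aa counts were 4689, 58393, 89284 and 14379 in IL4 against 3508 to 4392 in MPLA, the order of libraries seen for H2-Eb1. H2-Aa and H2-Ab1 followed H2-Eb1 across these libraries (r = 0.995 and 0.988). The gene lists, like the 5 genes, were drawn up with earlier results of these data known. P-values of listed genes, here and below, are thus no independent support. Of class I genes, Psmb9 (-2.07 ± 0.62) and H2-T23 (-1.98 ± 0.45) fell, and of coinhibitors Vsir (-1.69 ± 0.25, adjusted p = 0.00266) and Pdcd1lg2 (-2.36 ± 0.68). Pdcd1lg2 overlapped between the groups and was not above background in any MPLA library, IL4 1 or IL4 4, so its size is partly set by the floor. The costimulator Tnfsf4, the OX40 ligand, rose by 1.21 ± 0.37 (adjusted p = 0.0444). The CD28 ligand Cd80 (0.21 ± 0.31), Cd40 (-0.23 ± 0.48) and Cd274, which encodes PD-L1 (-2.02 ± 0.70, adjusted p = 0.0644), did not pass.

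The nanoparticle groups were set against the IL4 standard, a comparison each makes with the same IL4 libraries. For IRF5-NP the log2 difference was -4.98 ± 1.33 for H2-Eb1, -3.05 ± 1.12 for Cd74, -1.41 ± 0.68 for Cd83, -2.19 ± 1.18 for Cd86 and -0.67 ± 0.81 for Icosl, whose mean of log2 levels was instead slightly higher in IRF5-NP (5.21 against 5.17). The first 3 did not overlap IL4, as held for 8.75% of all genes, but none of the 5 passed edgeR's test, which called 0% of genes (53 had an unadjusted p under 0.05). DESeq2 put H2-Eb1 past its threshold, with 2.52% of all genes. Across the alternatives Cd83 ran from -0.92 without IRF5-NP 4 to -2.52 with the fibroblast marker mean as a covariate. For eGFP-NP it was -3.94 ± 1.21 for H2-Eb1, -3.20 ± 0.93 for Cd74, -2.32 ± 0.57 for Cd83, -2.98 ± 1.18 for Cd86 and -1.56 ± 0.88 for Icosl. Cd74 and Cd83 did not overlap IL4, as held for 11.9% of all genes, and again 0% of genes were called (84 unadjusted), while DESeq2 called H2-Eb1, Cd74 and Cd83 and 7.03% of all genes. Without eGFP-NP 1-2, Cd83 passed edgeR's test, with 0.265% of all genes. The ligand differences rested on IL4 2. Without it they were -0.15 for Cd86 and 0.58 for Icosl in IRF5-NP, and -0.89 for Cd86 and -0.28 for Icosl in eGFP-NP. Of the 33 other pathway genes edgeR called 0 in either comparison, with 8 and 12 at an unadjusted p under 0.05 and 2 (6.06%) and 10 (30.3%) called by DESeq2. H2-Aa stood at -4.19 ± 1.23 in IRF5-NP and -3.75 ± 1.12 in eGFP-NP.

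IRF5-NP against eGFP-NP asks what the IRF5 cargo adds to the nanoparticle. Irf5 itself, the transfected gene, did not differ by the panel's probe (-0.11 ± 0.59, adjusted p = 0.946 by edgeR, with 2313, 2096 and 205 counts in IRF5-NP against 1046 to 2645). The delivered IRF5 mRNA was codon-optimized, and the paper followed it with a PCR assay separate from that of the endogenous gene. By that assay it stayed raised for several days. Whether the panel's probe binds the delivered mRNA is not given in the sources used here, so delivery cannot be read from this value. H2-Eb1 stood at -1.06 ± 0.50 in IRF5-NP, without overlap, as held for 14.7% of all genes, and at -0.68 without IRF5-NP 4. Icosl stood at 0.90 ± 0.45, but IRF5-NP 4, eGFP-NP 3 and eGFP-NP 4 were not above background, so neither its size nor its lack of overlap was measured. Cd86 (0.85 ± 0.52), Cd83 (0.86 ± 0.87) and Cd74 (0.09 ± 0.81) overlapped, and Cd74 took the other sign under 8 of 17 alternatives. Cd86 was 0.22 without IRF5-NP 4. Cd83 was 1.74 without eGFP-NP 1-2 and 0.002 with the fibroblast marker mean as a covariate. EdgeR called 0% of genes, with 42 at an unadjusted p under 0.05. With the fibroblast marker mean as a covariate H2-Eb1 alone of the 5 passed, at -1.52, with 2.12% of all genes. Among the 33 other pathway genes 0 were called, by DESeq2 as well, with 4 at an unadjusted p under 0.05 and a median of 0.36 against 0.10 over all genes.

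Values were also set side by side for the 3 shared library numbers, although numbers 1 and 2 are nearly identical libraries in both groups and IRF5-NP 4 deviated more like an eGFP-NP library of another number. IRF5-NP minus eGFP-NP was -1.19, -1.14 and -2.08 log2 CPM for H2-Eb1 at numbers 1, 2 and 4. Cd74 stood at 0.05, -0.01 and -2.13, so it stood away from 0 at number 4 alone. Cd83 stood at 0.64, 0.34 and -0.81, the last with IRF5-NP 4 not above background. Cd86 stood at 0.00, -0.04 and 1.47, away from 0 at number 4 alone. Icosl stood at 0.36, 0.08 and 1.47, both libraries of the last pair being below background. H2-Aa (-0.45, -0.44 and -1.71) and H2-Ab1 (-0.24, -0.22 and -1.42) lay on the side of H2-Eb1. Within a library, the log2 ratio of H2-Eb1 to H2-Aa was -2.87 ± 0.13 (SD, n = 3) in IRF5-NP, -2.34 ± 0.12 (n = 3) in eGFP-NP, -2.28 ± 0.31 (n = 4) in IL4 and -2.71 ± 0.08 (n = 4) in MPLA. IRF5-NP 4 had the lowest total count, and its macrophage marker mean was 10.0 log2 CPM against 11.4 and 11.5 in the other IRF5-NP libraries and 9.88 in its partner eGFP-NP 4.

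**Figure D3:**
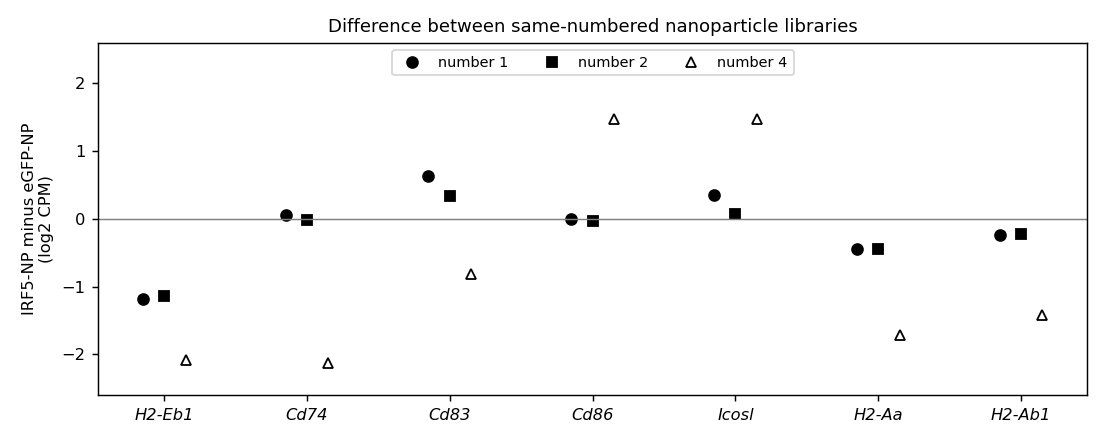
IRF5-NP minus eGFP-NP in log2 CPM (y axis) for the 5 genes and both I-A chains (x axis), for library numbers 1, 2 (filled) and 4 (open triangle). H2-Eb1 is below 0 at every number (-1.19, -1.14 and -2.08), and number 4 stands apart from the other numbers for every gene.

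Both nanoparticle groups were also set against the same MPLA libraries. In IRF5-NP Icosl stood at -1.34 ± 0.17 and passed edgeR's test, as did 24.4% of all genes. Its count in IRF5-NP 4 (16) was not above background, so the size of this difference is partly set by the floor. IRF5-NP 1 and 2 are nearly identical, so the small SE rests on few separate samples. Cd86 (-1.19 ± 0.40) did not pass, and both ligands lay below MPLA without overlap, as 47.6% of all genes did not overlap. Cd86 did pass under DESeq2 (51.5% of all genes) and with DESeq2 size factors (28.6%). Cd74 (0.61 ± 0.62), Cd83 (0.45 ± 0.58) and H2-Eb1 (-0.17 ± 0.36) overlapped. The fitted Cd83 difference is above 0, although the mean of log2 levels was lower in IRF5-NP (7.94 against 8.02). Without IRF5-NP 4, which leaves the nearly identical IRF5-NP 1 and 2, Cd74, Cd83, Cd86 and Icosl passed, as did 75.1% of all genes, and H2-Eb1 turned to 0.16. In eGFP-NP Cd86 (-2.11 ± 0.19) and Icosl (-2.32 ± 0.36) passed, as did 19.6% of all genes, and H2-Eb1 (0.77 ± 0.25) lay above MPLA without overlap and did not pass. Groups did not overlap for 40.2% of all genes. In eGFP-NP Cd74 (0.40 ± 0.32) and Cd83 (-0.53 ± 0.47) overlapped MPLA and did not pass. Icosl was not above background in eGFP-NP 3 and 4, so the size of its difference is partly set by the floor. Without eGFP-NP 1-2, which leaves the nearly identical eGFP-NP 3 and 4, H2-Eb1 and Cd83 passed as well, as did 56.8% of all genes, and H2-Eb1 also passed under median scaling (23.6% of all genes), under DESeq2 (30.2%) and with every library separate (25.1%). With nearly identical pairs summed, 0% of genes passed in either comparison with MPLA, and with all groups in one fit none of the 5 passed, against 18% of all genes in IRF5-NP and 6.63% in eGFP-NP. Under the replicate block 0% of genes passed in IRF5-NP vs MPLA, with Icosl at -1.38. With the fibroblast marker mean as a covariate, the IRF5-NP differences became -2.51 for Cd74, -2.50 for Cd83, -1.64 for H2-Eb1, 0.03 for Cd86 and -1.13 for Icosl, and all but Cd86 passed, as did 61.7% of all genes. In eGFP-NP this fit gave -0.21 for Cd74, -1.66 for Cd83, 0.32 for H2-Eb1, -2.33 for Cd86 and -3.07 for Icosl, and Cd83, Cd86 and Icosl passed, as did 55.3% of all genes. The fibroblast mean of MPLA (12.5 to 12.7) lay above that of every IRF5-NP (4.00 to 11.0) and eGFP-NP library (4.02 to 11.6). Both fits thus extrapolate, and in IRF5-NP the slope rests mainly on IRF5-NP 4 against the nearly identical IRF5-NP 1 and 2. No direction is read from these fits.

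Of the 33 other pathway genes, 6 (18.2%) were called by edgeR in each comparison with MPLA, against 24.4% of all genes in IRF5-NP and 19.6% in eGFP-NP. Cd80 rose in both, by 0.59 ± 0.13 in IRF5-NP (adjusted p = 0.0228) and 0.82 ± 0.13 in eGFP-NP (adjusted p = 0.00693), whereas Cd40, the receptor of CD40 ligand, fell in both, with -0.94 ± 0.16 and -1.99 ± 0.26. Cd40 was not above background in IRF5-NP 4, eGFP-NP 3 and eGFP-NP 4 (16, 19 and 17 counts), so the size of these falls is partly set by the floor. The lipid-presenting Cd1d1 fell too (-0.99 ± 0.13 and -0.94 ± 0.13). H2-Ob, a chain that restrains H2-DM, was not above background in any nanoparticle library. In IRF5-NP the lysosomal protease Ctsl rose by 1.34 ± 0.37, though it overlapped MPLA. It lay at 11.2 log2 CPM in IRF5-NP 4, against 13.1 and 12.9 in the nearly identical IRF5-NP 1 and 2. Cd70 was called in IRF5-NP at counts not above background. In eGFP-NP the class I gene H2-M3 (-0.99 ± 0.23) and Tnfrsf14 (-0.79 ± 0.19) fell. Leaving out IRF5-NP 4 raised the 6 to 24 (72.7% of the 33, against 75.1% of all genes), and leaving out eGFP-NP 1-2 raised the 6 to 21 (63.6%, against 56.8% of all genes). Leaving out any other library gave 1 or 2 in IRF5-NP and 3 or 4 in eGFP-NP, and summing the nearly identical pairs gave 0 in both.

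**Figure D4:**
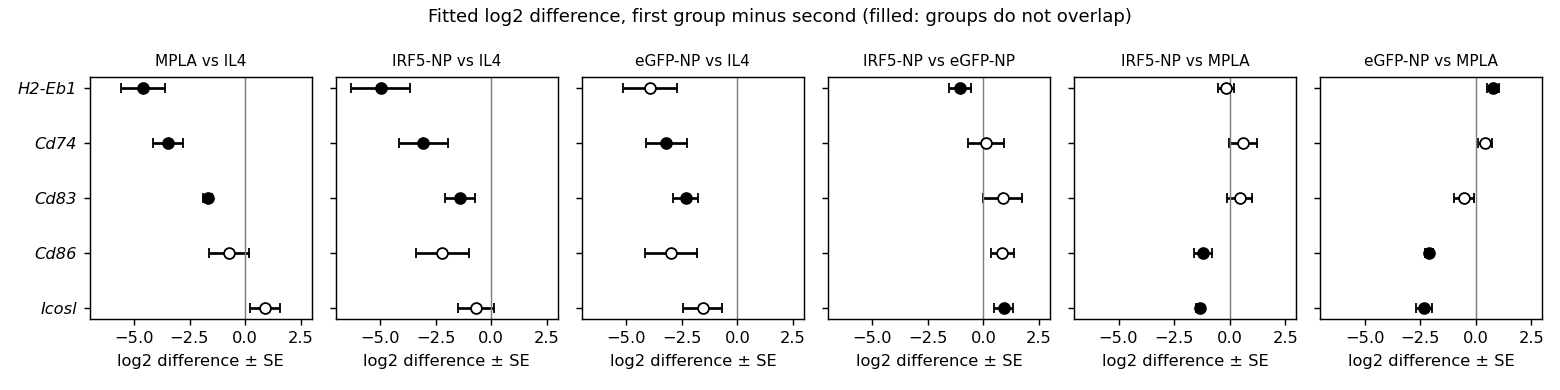
Fitted log2 difference with its SE (x axis), first group minus second, for the 5 genes (y axis) in each of 6 comparisons; filled points are genes whose groups did not overlap. H2-Eb1, Cd74 and Cd83 lie left of 0 in all comparisons with IL4, and Cd86 and Icosl lie left of 0 in those of nanoparticles with MPLA.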

How the data were processed

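The authors deposited raw counts of 768 probes (754 genes, 6 positive and 8 negative controls) for 15 samples, with no normalization; the methods' quality check, housekeeping normalization and t-tests had not been applied to them. Lane and cartridge were not given in the sources used here. Groups and replicate numbers came from the labels. The 5 genes and the gene lists were chosen with earlier results of these data known. A current mouse symbol was found for 744 gene names and a synonym for 9, and 1 had neither.

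Within groups, 5 of 21 pairs of libraries were nearly identical (chi-square over degrees of freedom between 1.09 and 2.56, against 41.4 to 1250, for genes whose counts summed to 40 or more). eGFP-NP 1 and 2 (1.09, p = 0.0817) were summed. Each of 6 pairs of groups was fitted alone with edgeR 4.0.16 (R 4.3.3), quasi-likelihood test, TMM scaling, no filter, two-sided, Benjamini-Hochberg at 0.05; the SE is the log2 difference over the square root of F. Levels are log2 CPM with a prior count of 2. The code was tested on simulated data. Named genes were the 5, per comparison up to 3 called pathway genes with the largest increase and 3 with the largest decrease, H2-Aa, H2-Ab1, Cd80, Cd40, Cd274 and Irf5, and the 3 genes most like each of the 5 by Pearson r. Psmb9, H2-T23, Vsir, Pdcd1lg2, H2-DMb1, Ctss, Cd1d1, Tnfrsf14, Clec9a, Xcr1, Flt3, Batf3, Ccr7, Fscn1, Mertk and Itgax were also named, after their values were seen.

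Alternatives were other scalings, a filter, DESeq2 1.42.0, the methods' t-test, all groups in one fit, libraries summed or separate, a fibroblast covariate, a replicate block and leaving out each library. For the pairing check, same-numbered IRF5-NP and eGFP-NP libraries deviated together from their group means (r of 0.823, 0.821 and 0.818 at numbers 1, 2 and 4), so these numbers were taken to pair them, although numbers 1 and 2 are nearly the same library in each group and IRF5-NP 4 correlated better with a library of another number. In the other comparisons the correlations ran from -0.816 to 0.318, and the numbers were taken as names.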

Additional observations from a re-analysis of the deposited data

Results flagged for a closer look

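In 2 of 50 groups of 4 libraries tested among the 5 genes and the named pathway genes, 1 library stood far from the others; chance marks about 1 in 20 groups. For Ctss, the protease of the invariant chain, IL4 3 was separated from the nearest IL4 library by 0.872 of the group's range. For Cd40, MPLA 2 was separated by 0.888 of the range.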

How the results depend on the processing

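Across 540 refits of the 5 genes' log2 differences, 512 moved by less than 1 SD between replicates and 28 by more, and 20 had the opposite sign, none of them for a value that had passed the threshold. The methods' t-test, which called 2.79% of all genes in MPLA vs IL4, 1.46% in IRF5-NP vs MPLA and 6.63% in eGFP-NP vs MPLA, ended the calls of H2-Eb1, Cd74 and Cd83 in the first and of Icosl in the other two, kept that of Cd86 in eGFP-NP vs MPLA, and put Cd86 at 0.12 in MPLA vs IL4. Counts of the 33 other pathway genes called moved more. For MPLA vs IL4 the count of 10 became 0 under the methods' t-test and with nearly identical pairs summed, and 5 with the fibroblast covariate, and ranged from 3 to 12 with 1 library left out (3 without MPLA 1 or MPLA 4, 6 without MPLA 2). For IRF5-NP vs IL4 the 0 became 2 under DESeq2 and stayed 0 with any library left out. For eGFP-NP vs IL4 the 0 became 10 under DESeq2 and 2 with all groups in one fit, and was 0 with any library left out. For IRF5-NP vs eGFP-NP it was 0 under every alternative run. For IRF5-NP vs MPLA the 6 became 10 under median scaling, 13 under DESeq2, 1 under the t-test, 2 with all groups in one fit, 0 with nearly identical pairs summed and 19 with the covariate, and ranged from 1 (without IRF5-NP 2) to 24 (without IRF5-NP 4), with 2 when IRF5-NP 1 or any 1 MPLA library was left out. For eGFP-NP vs MPLA the 6 became 12 under DESeq2, 2 under the t-test, 1 with all groups in one fit, 0 with nearly identical pairs summed and 21 with the covariate, and ranged from 3 (without MPLA 2 or MPLA 4) to 21 (without eGFP-NP 1-2). With the replicate block, fitted with every library separate, the count was 3 in MPLA vs IL4 and 4 in eGFP-NP vs MPLA. It was 0 in IRF5-NP vs MPLA and 0 in the other comparisons. Separate libraries without the block gave 9 in eGFP-NP vs MPLA. In IRF5-NP vs eGFP-NP, where pairing by number was only assumed, the block left H2-Eb1 at -1.51 and changed no call. That fit counted the nearly identical libraries 1 and 2 of each group as separate samples. The cause of these shifts was not tested.

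Over all genes, median scaling turned the IRF5-NP vs MPLA calls from 87 higher and 97 lower into 168 and 52, and those of eGFP-NP vs MPLA from 54 and 94 into 100 and 78, and housekeeping scaling turned those of MPLA vs IL4 from 92 and 107 into 45 and 123. Icosl in IL4 1, IL4 3, IRF5-NP 4, eGFP-NP 3 and eGFP-NP 4 and Cd83 in IRF5-NP 4 were not above background, and Cd86 in nanoparticle libraries was close to it, which limits how precisely differences that use these libraries were measured.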
